A study of Drosophila melanogaster with 2 samples.

Results

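Start-flanking peaks are the Su(var)2-10-GFP peaks that passed the authors' reproducibility filter and had their summit more than 250 and at most 1000 bp from the nearest annotated transcript start, on either strand. They numbered 808 of the 2942 reproducible peaks of the dm6 build, or 27.5% (95% Wilson interval 25.9 to 29.1), and formed 726 separate regions. Of these, 554 lay upstream of that start, on its promoter side, and 254 lay downstream of it, toward the first intron. The remaining reproducible peaks were 1089 promoter peaks with a summit within 250 bp of a start and 1045 farther peaks more than 1000 bp away. Distances ran from the peak summit to starts of all annotated transcripts other than transposable elements. Chromatin came from whole Drosophila melanogaster embryos of both sexes collected over 0 to 24 h, from a transgenic line that made Su(var)2-10 with GFP at the C-terminus. An antibody to GFP was used, and 2 biological replicates of this single group, labelled 2 and 3, were sequenced after sonication to 200 to 800 bp. An untagged or mock profile and a profile of endogenous Su(var)2-10 were not used here, and whole embryos mix all cell types and stages. The files hold peaks and not reads, so depth is unknown, no value could be tested over samples, and intervals and tests over peaks cover counting error between sets of peaks only.

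Su(var)2-10 is the fly member of the PIAS family of SUMO E3 ligases, enzymes that help attach the small protein SUMO to other proteins, many of them chromatin and transcription factors. Its gene was named for suppressing position-effect variegation, the mosaic silencing of genes placed beside heterochromatin. PIAS proteins are generally brought to DNA by the proteins they bind. In the compact fly genome, the first kilobase on either side of a start holds promoter-proximal enhancers, the spacer between divergent genes and the first part of the first intron. Genes with several alternative starts can have one promoter inside an intron of a longer transcript, so that sequence upstream of one start lies within the same gene.

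Sequence around the summit is shown for the strongest peaks of each side, to let the composition and the words described further on be seen in place. Each reaches 60 bases to either side of the summit and is read from the plus strand of the RefSeq Release 6 assembly (dm6). Windows that touched an annotated untranslated region were left out, as was 1 chromosome arm. Capitals mark every match, on either strand, to one of 25 motifs searched and to the word ACAGTG, whose other strand reads CACTGT.
lncRNA:CR44619, 654 bp upstream, chrX:12751153-12751273: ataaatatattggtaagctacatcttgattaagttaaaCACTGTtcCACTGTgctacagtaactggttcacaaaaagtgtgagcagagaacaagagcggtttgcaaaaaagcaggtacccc
lncRNA:CR44619, 449 bp upstream, chrX:12751358-12751478: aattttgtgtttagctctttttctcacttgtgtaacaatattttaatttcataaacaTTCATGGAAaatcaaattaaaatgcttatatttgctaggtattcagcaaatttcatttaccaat
ph-d, 807 bp upstream, chrX:2124033-2124153: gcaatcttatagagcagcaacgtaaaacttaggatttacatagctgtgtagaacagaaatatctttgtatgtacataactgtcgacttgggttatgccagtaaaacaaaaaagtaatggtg
Lk6, 947 bp upstream, chr3R:11760966-11761086: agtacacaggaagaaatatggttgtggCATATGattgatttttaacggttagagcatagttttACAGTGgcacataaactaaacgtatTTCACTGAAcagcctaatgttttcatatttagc
lncRNA:CR44619, 506 bp downstream, chrX:12752313-12752433: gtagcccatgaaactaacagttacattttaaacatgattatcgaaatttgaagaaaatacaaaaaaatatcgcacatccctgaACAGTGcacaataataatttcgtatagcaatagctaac
CG9663, 928 bp downstream, chr2L:3302142-3302262: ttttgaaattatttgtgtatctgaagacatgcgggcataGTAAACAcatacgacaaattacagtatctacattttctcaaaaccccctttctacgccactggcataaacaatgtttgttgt
lncRNA:CR46035, 702 bp downstream, chr3R:17704337-17704457: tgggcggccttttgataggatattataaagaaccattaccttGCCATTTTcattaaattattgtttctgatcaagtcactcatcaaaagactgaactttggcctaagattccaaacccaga
CG9921, 578 bp downstream, chrX:16332962-16333082: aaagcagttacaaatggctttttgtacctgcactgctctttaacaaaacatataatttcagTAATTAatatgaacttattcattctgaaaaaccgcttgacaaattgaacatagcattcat
ACAGTG or CACTGT occurred at 3 of these 8 summits, with 2 copies at the strongest start-flanking peak. The peaks of lncRNA:CR44619 lay in exons of non-coding RNA genes, those of Lk6, CG9663 and CG9921 in introns, and that of ph-d between genes.

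Peaks upstream of a start dominated the set, and they crowded toward the start. Promoter peaks leaned upstream too, with 916 of 1089, so this side was not particular to start-flanking peaks. Of the 808 peaks 68.6% were upstream (interval 65.3 to 71.7), against 48.4% (47.1 to 49.7) of the 5943 candidate peaks at the same distances that did not pass the filter. The odds ratio was 2.33 (two-sided Fisher's exact test, p = 1.71e-27, adjusted p = 1.37e-26 by Benjamini-Hochberg over 16 tests). The sequence itself was upstream in 41.2% of its length. The pooled list held 30000 candidate peaks, and passing meant being among its 2942 peaks of highest signal, so every comparison with candidates that did not pass sets higher against lower signal. In all, 9.81% of candidates passed. Between 250 and 1000 bp 11.97% of 6751 passed, against 9.18% of the 23249 other candidates (odds ratio 1.34, Fisher's exact adjusted p = 1.04e-10). Those others mix promoter candidates, of which 25.98% passed, with farther ones, of which 7.15%, 5.54% and 4.29% passed with growing distance. The share between 250 and 1000 bp thus lay below that of promoter candidates and above those of farther ones, and the test does not set it apart from this decline. By side between 250 and 1000 bp, 16.2% of upstream candidates passed (interval 14.96 to 17.4), against 7.65% of downstream ones (6.79 to 8.60). Each replicate alone, taken as its 2942 strongest peaks, gave an upstream share of 69.3% in replicate 2 and 66.3% in replicate 3.

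**Figure D1:**
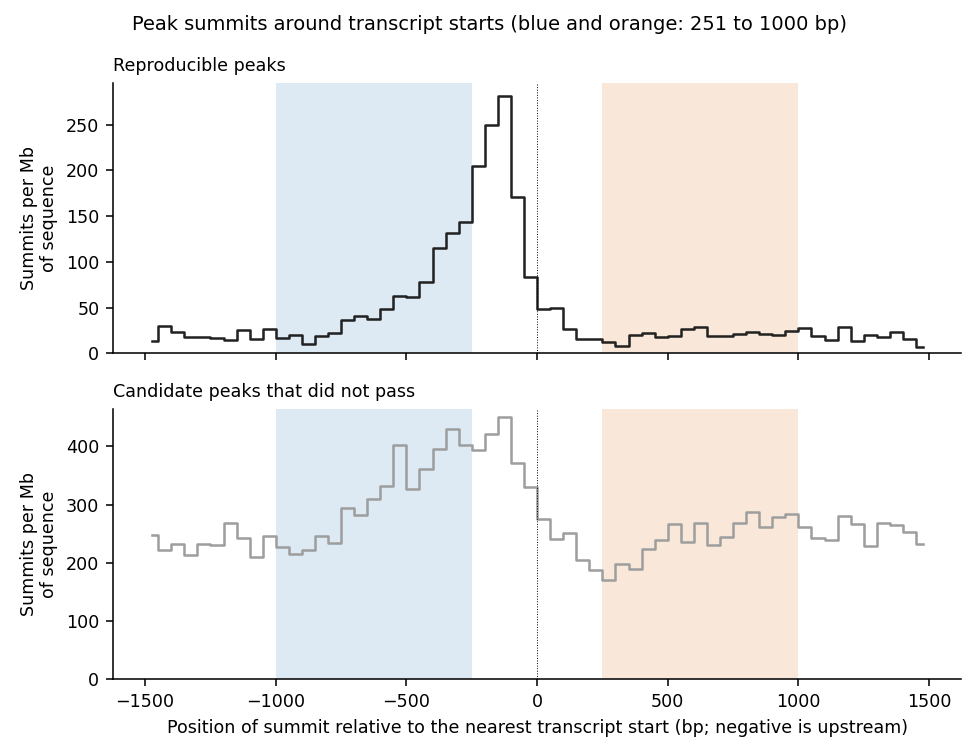
Peak summits per Mb of sequence in bins of 50 bp around the nearest transcript start, for reproducible peaks (top) and for candidate peaks that did not pass (bottom); blue and orange shading mark 250 to 1000 bp upstream and downstream. Reproducible peaks stand at 107.6, 45.3 and 17.9 per Mb in the near, middle and outer part of the blue stretch, and at 16.1, 22.4 and 22.0 per Mb in those of the orange one.

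Between 250 and 1000 bp upstream density declined with distance, and downstream density did not. Nearer the start, within 250 bp, reproducible peaks stood at 192.2 per Mb upstream and 32.55 per Mb downstream. Reproducible summits stood at 107.6, 45.3 and 17.9 per Mb of sequence at 250 to 500, 500 to 750 and 750 to 1000 bp upstream. On the downstream side the 3 values were 16.1, 22.4 and 22.0 per Mb. Relative to the sequence at each distance, the nearest upstream bin was enriched 5.01-fold (exact 95% interval 4.55 to 5.51) and the middle bin 2.11-fold (1.78 to 2.49). The outer upstream bin had 0.83 times its share of sequence (0.61 to 1.11), an interval that includes 1. The nearest downstream bin held 0.75 times its share (0.59 to 0.93), and the other downstream bins, at 1.04 and 1.02, had intervals that include 1. By bin, 83.4% of 451 start-flanking peaks at 250 to 500 bp were upstream, against 58.5% of the candidates there that did not pass. At 500 to 750 bp the shares were 58.3% of 228 and 47.4% (odds ratio 1.55, unadjusted Fisher's exact p = 0.00205). At 750 to 1000 bp they were 34.9% of 129 and 35.4% (odds ratio 0.98, unadjusted Fisher's exact p = 1), so the side difference was not detectable there. The inner limit cut through this slope: 22 reproducible peaks lay in the first 10 bp past 250 bp (median signal 264) and 30 in the 10 bp before it (223). At the outer limit 6 lay in the last 10 bp up to 1000 bp (192) and 4 in the 10 bp beyond (250.7).

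**Figure D2:**
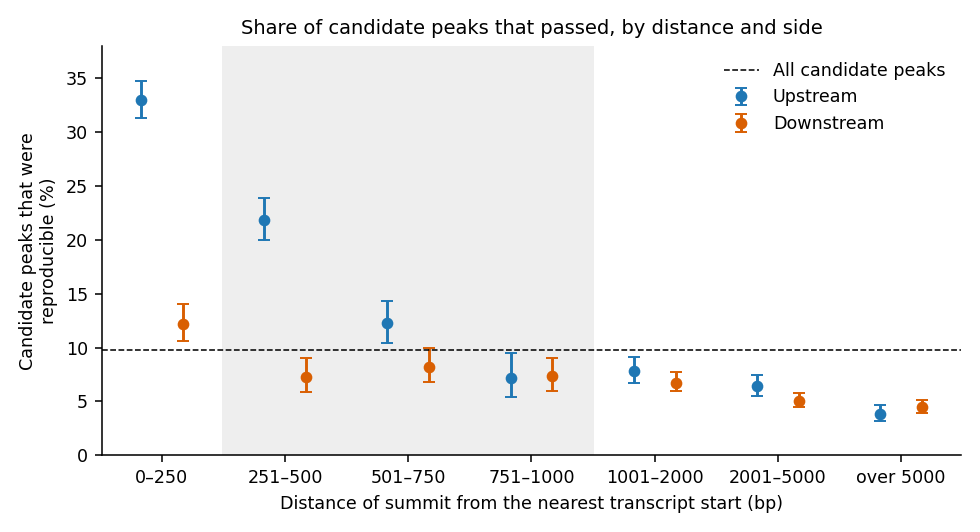
Share of pooled candidate peaks that were reproducible, by distance from the nearest start and by side, with 95% Wilson intervals; the dashed line is the 9.81% of all candidates and the grey area covers 250 to 1000 bp. Upstream candidates pass in 21.9%, 12.2% and 7.22% of cases across the grey bins, against 7.30%, 8.23% and 7.37% downstream.

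Some of the upstream excess adjoined promoter peaks. Among start-flanking peaks, 95 overlapped the interval of a reproducible promoter peak, 86 of them upstream and 9 downstream, and 270 (33.4%) overlapped some other reproducible peak. Without peaks that overlapped a promoter peak, 65.6% of 713 were upstream (62.1 to 69.0), against 47.8% of 5837 candidates that did not pass (odds ratio 2.09, unadjusted Fisher's exact p = 1.65e-19). Among summits with starts of only 1 strand within 1000 bp the shares were 67.8% of 690 and 49.3% of 5251 (odds ratio 2.17, Fisher's exact adjusted p = 1.44e-19).

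Upstream peaks were rarely inside a neighbouring gene and often inside the gene they preceded. Intergenic sequence held 260 (46.9%, interval 42.8 to 51.1), against 40.6% of upstream candidates that did not pass (odds ratio 1.29, Fisher's exact adjusted p = 0.00846). Another 214 (38.6%, 34.7 to 42.7) lay within the gene whose start they preceded, against 27.0% (odds ratio 1.70, Fisher's exact adjusted p = 1.36e-07). The other 80 (14.4%, 11.8 to 17.6) lay inside another gene, against 32.4% (odds ratio 0.35, Fisher's exact adjusted p = 2.2e-18). Of the 214 within their own gene 93.9% were intronic, and they lay a median of 5630 bp inside the outermost start of that gene (quartiles 2150 to 15320 bp). These are summits in front of internal alternative starts. They had a median signal of 221, against 195 for intergenic upstream peaks, a description only because signal chose the list.

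Downstream peaks sat mainly in first introns. These held 158 of 254 (62.2%, interval 56.1 to 67.9), against 44.4% of 3067 downstream candidates that did not pass (odds ratio 2.06, Fisher's exact adjusted p = 1.36e-07). First exons held 40 (15.7%) against 20.4% (odds ratio 0.73, Fisher's exact adjusted p = 0.0921). Other positions, beyond the first intron or outside the transcript, held 56 (22.0%) against 35.2% (odds ratio 0.52, Fisher's exact adjusted p = 2.16e-05). The first introns that held a peak had a median length of 2060 bp and ran from 143 to 27404 bp. By base annotation, all 808 summits comprised 444 in introns, 274 in intergenic sequence, 37 in 5' UTRs, 35 in other exons, 14 in 3' UTRs and 4 in coding sequence.

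**Figure D3:**
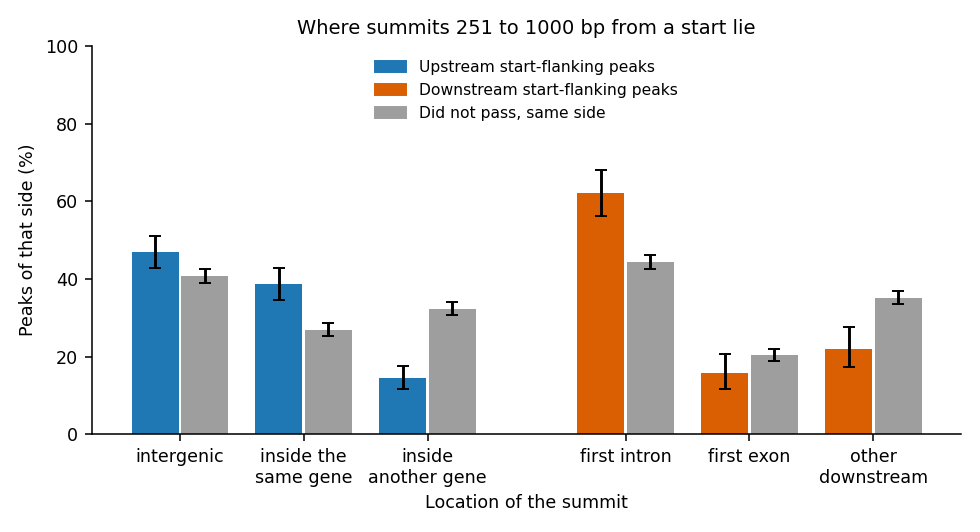
Location of summits 250 to 1000 bp from a start, as a percentage of the peaks of each side with 95% Wilson intervals; blue bars are upstream and orange bars downstream start-flanking peaks, and each grey bar to their right gives candidates of the same side that did not pass. First introns reach 62.2% against 44.4%, and positions inside another gene 14.4% against 32.4%.

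The nearest start belonged to a non-coding gene for 112 peaks (13.9%, 11.7 to 16.4), against 7.16% of promoter peaks (odds ratio 2.09, Fisher's exact adjusted p = 3.63e-06) and 15.9% of candidates at the same distances that did not pass (odds ratio 0.85, adjusted p = 0.135). Farther peaks had a higher share than start-flanking ones, with 209 of 1045 nearest starts non-coding. Among start-flanking peaks the share rose with distance upstream only, with 23 of 376, 16 of 133 and 12 of 45 from the nearest to the outer bin. Downstream it fell, with 22 of 75, 24 of 95 and 15 of 84. On the downstream side of the start-flanking peaks 61 of 254 starts were non-coding and on the upstream side 51 of 554.

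A reproducible promoter peak at the same gene accompanied 146 start-flanking peaks, or 18.1% (15.6 to 20.9), against 10.4% of candidates that did not pass (odds ratio 1.91, Fisher's exact adjusted p = 2.9e-09). This difference did not hold among peaks that did not overlap a promoter peak: 62 of 713 (8.70%, 6.84 to 11.0) had one, against 8.89% of 5837 (odds ratio 0.98, unadjusted Fisher's exact p = 0.944). Upstream peaks had a promoter companion in 20.9% of cases and downstream peaks in 11.8% (odds ratio 1.98, Fisher's exact adjusted p = 0.0023), again with the overlapping peaks counted. Most start-flanking peaks stood at genes with no reproducible promoter peak.

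The signal, the authors' score for the strength of a peak, had a median of 199 over the 808 peaks (quartiles 154 to 297, highest 1413), with 208 upstream and 183 downstream. Promoter peaks had a median of 206 and farther peaks 177. Among the 100 strongest reproducible peaks 31 were start-flanking, near their 27.5% of all reproducible peaks, with 25 upstream and 6 downstream. Of the same 100, 48 were promoter peaks and 21 farther peaks. Most were found in each replicate: 711 (88.0%) had a summit within 100 bp in both replicate lists, 53 had none in replicate 2, 49 had none in replicate 3 and 5 had none in either. With only the 2942 strongest peaks of each replicate, 61.01% were found in both (57.6 to 64.3), against 65.3% of promoter peaks. Upstream peaks reached 63.5% and downstream peaks 55.5%. A place among the strongest peaks depends on signal, which chose the list and was higher upstream, so these shares are a description only. Per Mb of sequence at these distances, arms 2L, 2R, 3L and 3R had 33.8 to 37.4 peaks, chromosome 4 had 41.2 from 7 peaks and X had 46.5 from 167. Candidates that did not pass were denser on chromosome 4, at 629.5 per Mb against 262.9 to 283.7 on the other arms named. Of the candidates at these distances 6.14% passed on chromosome 4, against 11.25% to 14.73% on those arms.

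**Figure D4:**
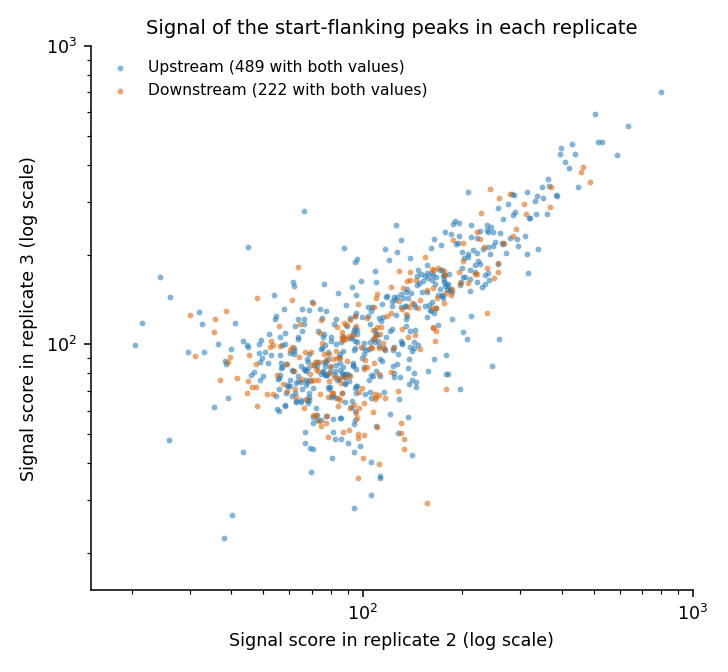
Signal score of each start-flanking peak in replicate 2 and replicate 3 (log scales), for the 489 upstream and 222 downstream peaks with a summit within 100 bp in both lists; the scores of the 2 lists have no shared unit. Points at high scores lie on a narrow diagonal and points near 100 spread widely.

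The 12 strongest upstream peaks scored between 822 and 1413, and 2 of them stood at the same non-coding gene. The highest score, 1413, lay 654 bp upstream of the start of the non-coding gene lncRNA:CR44619 on X, inside lncRNA:Vinr, and ranked 4 in replicate 2 and 3 in replicate 3. A second summit of the same interval, 449 bp upstream, scored 1259.5. HmgZ, which encodes an HMG-box chromosomal protein, had a peak of 1161 at 557 bp upstream (ranks 6 and 9), in an intron. The peak of 1057 at 807 bp upstream of ph-d, a polyhomeotic gene of Polycomb repressive complex 1, ranked 8 in replicate 2. It had no summit within 100 bp in replicate 3, where the nearest lay 127 bp away. CG1888 had 1020.4 at 260 bp, and Lk6, a kinase that phosphorylates the cap-binding factor eIF4E, had 1020.1 at 947 bp, with rank 16 in both replicates. Fhos, a formin that assembles actin filaments, had 998 at 320 bp (ranks 19 and 15). The RNA-related genes bin3, a 7SK methyltransferase, and larp, a La-related RNA-binding protein, had 891 at 316 bp and 882 at 325 bp. Then came l(2)k01209 with 850.0 at 279 bp and Sox14, a Sox-family transcription factor of the ecdysone response, with 839.6 at 262 bp. Last of the 12 was chn, a zinc-finger transcription factor of neural development, with 822 at 265 bp. From bin3 to chn these peaks ranked between 41 and 57 in replicate 2 and between 18 and 34 in replicate 3. Of the 12 strongest upstream summits 7 lay within 350 bp of the start.

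The strongest downstream peaks reached scores between 535 and 834. The first belonged again to lncRNA:CR44619, 506 bp into its first exon (834, ranks 38 and 46), and the second to CG9663, 928 bp into the gene in its first intron (828, ranks 24 and 59). The gene ph-p, the other polyhomeotic copy, had 2 summits in its first exon, in the 5' UTR. The one at 365 bp (701) ranked 35 and 42 in the replicates, and the one at 567 bp (825) had no summit within 100 bp in either. The nearest replicate summits lay 162 and 163 bp from the latter. The sequence windows at ph-p and ph-d held no 31-base word found elsewhere in the assembly. First introns also carried the peaks of Adf1, a transcription factor with a MADF domain (721 at 825 bp, ranks 73 and 64), and of wde, the partner of a histone H3K9 methyltransferase (664 at 539 bp, ranks 77 and 118). CG9921 had 577 at 578 bp and Ada2b, a subunit of the SAGA acetyltransferase complex, 535 at 417 bp, both in first introns. The peak of Raf, the kinase that links Ras to MAP kinase signalling, scored 598 at 894 bp, in an intron past the first intron of the nearest start. Non-coding starts made up the rest, with lncRNA:CR46035 at 625 (702 bp), lncRNA:CR45128 at 583 (821 bp) and lncRNA:CR45643 at 575 (903 bp).

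Several genes had more than 1 start-flanking peak. CHES-1-like, a forkhead transcription factor gene on X, had 4, at 353, 549 and 749 bp upstream of starts (320, 696 and 475) and 319 bp downstream of one (465). Another summit of ph-p lay 478 bp upstream of a start (582). CG43736 had 3 upstream summits, at 597, 437 and 393 bp (530, 381 and 258). Of the 602 protein-coding genes with a start-flanking peak, 93 had at least 2 such summits and 31 had them on both sides. Summits of 1 gene can belong to overlapping peaks, as do those of CHES-1-like at 549 and 749 bp and of CG43736 at 597 and 393 bp.

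Of 13945 protein-coding genes 602, or 4.32%, had a start-flanking peak at one of their starts, 449 (3.22%) upstream and 184 (1.32%) downstream. These genes were long and had dispersed starts. Starts more than 250 bp apart were annotated in 58.1% of them (54.2 to 62.0), against 31.3% of 1146 genes with a promoter peak and no start-flanking peak (28.7 to 34.1) and 17.6% of all other genes. Their median length was 10.1 kb, against 2.89 kb for the genes with a promoter peak only and 2.08 kb for all others. A gene with more starts has more sequence at this distance, and the part of this in the counts that follow was not tested. Each list is described by its count beside the 4.32% of all genes, without a test.

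RNA-binding protein genes had start-flanking peaks most often among the 12 lists, in 14 of 43 genes (32.6%, 20.5 to 47.5), with 10 upstream and 5 downstream. Promoter peaks were frequent in this list too, at 11 of the 43 genes (25.6%), against 9.10% of all protein-coding genes. Besides bin3 and larp they included elav, the neuronal RNA-binding protein, with 639 at 268 bp upstream, inside another gene, and 185 at 559 bp in the first intron. Signalling genes followed with 16 of 72 (22.2%, 14.2 to 33.1). They included brk, the repressor of Dpp target genes, with 603 at 745 bp and 388 at 546 bp upstream, Raf, and spi, an EGF receptor ligand, with 457 at 361 bp. The spi peak ranked 903 in replicate 2 and 177 in replicate 3. Neuronal genes had 6 of 35, among them dnc, a cyclic AMP phosphodiesterase (548 at 294 bp and 401 at 312 bp), and dlg1, a scaffold of junctions and synapses (203 at 561 bp in the first intron).

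Of the listed developmental transcription factor genes 15 (12.4%, 7.66 to 19.5) had a start-flanking peak, 14 with an upstream and 2 with a downstream peak. Sox14, chn and cbt, a zinc-finger factor with 536 at 371 bp upstream, led them. Chromatin regulators had 8 of 63 (12.7%), led by ph-d, ph-p and wde. Genes of adhesion, guidance and the cytoskeleton had 9 of 62 (14.5%), with Fhos, the nesprin gene Msp300 (480 at 409 bp and 450.2 at 655 bp) and the myosin VI gene jar (327 at 531 bp), all upstream within their own gene. Muscle genes had 4 of 25, with Msp300, rols (199 at 415 bp) and the titin gene sls (187 at 266 bp). Nuclear receptor and ecdysone genes had 4 of 26, with Hnf4 (417 at 302 bp upstream), eg (191 at 339 bp) and Eip63E (137 at 573 bp in the first intron, with no summit in replicate 2 within 100 bp).

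Promoter peaks were found at 1269 of all protein-coding genes, or 9.10%. Cytoplasmic ribosomal protein genes had a promoter peak in 44 of 93 cases (47.3%) and a start-flanking peak in 5 (5.38%, 2.32 to 11.97), near the 4.32% of all genes, 4 of them at genes that had a promoter peak too. All 5 lay upstream at 347 to 393 bp with low scores of 133 to 160, such as RpS3A (159.6 at 393 bp), RpS7 (156 at 347 bp) and RpL10 (138 at 370 bp). Translation factors had a promoter peak in 11 of 41 cases (26.8%) and a start-flanking peak in 2, pAbp, the poly(A)-binding protein (174 at 504 bp downstream), and eEF1delta (139 at 365 bp upstream). No start-flanking peak was found at 73 mitochondrial ribosomal protein genes, where the interval allows up to 4.999%, and 12 of them (16.4%) had a promoter peak. None was found at 10 SUMO pathway genes either (up to 27.8%), of which 2 had a promoter peak.

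Summits of start-flanking peaks were AT-rich. The median GC content within 100 bp of the summit was 33.3%, against 43.8% in windows 500 bp to either side and 42.3% over the genome cut into such windows. It was 32.8% upstream and 35.3% downstream, and 32.3% at promoter peaks and 34.3% at farther peaks. Candidates at the same distances that did not pass had 38.3%. In bins of 40 bp mean GC fell to 32.3% beside the summit, against 44.3% near 360 bp away.

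Motif matches were compared in the same windows, summit against flank. Of 25 motifs, 3 were more frequent at the summit and 2 at the flank (exact McNemar test, two-sided, Benjamini-Hochberg over 25). The TATA box (TATAAAA) occurred in 18.9% of summit windows against 7.92% of flank windows (exact McNemar adjusted p = 3.53e-09), in 12.7% of candidates that did not pass and in 9.26% of genome windows. The homeodomain core TAATTA had 17.8% against 8.66% (exact McNemar adjusted p = 6.16e-07, genome 12.5%), and a run of 8 A had 17.6% against 12.4% (exact McNemar adjusted p = 0.0209, genome 10.6%). Lower at the summit were the CA repeat CACACACA (3.96% against 10.9%, exact McNemar adjusted p = 9.26e-07, genome 4.09%) and the GAGA factor repeat GAGAGAG (6.06% against 10.4%, exact McNemar adjusted p = 0.00883, genome 2.45%). The part of base composition in these differences was not tested.

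Of the 25 motifs 4 differed between start-flanking and promoter peaks. These sets were defined by distance from a start, and no start-flanking window reached an annotated start. Lower shares of core promoter elements, here TATCGATA and GGTCACAC, could therefore follow from that rule alone. The DNA replication-related element TATCGATA was found in 0.87% of start-flanking and 4.96% of promoter summit windows (odds ratio 0.17, Fisher's exact adjusted p = 2.86e-06), and Motif 1, GGTCACAC, in 0.25% and 2.11% (odds ratio 0.12, Fisher's exact adjusted p = 0.00377). GAGAGAG was more frequent in start-flanking windows, at 6.06% against 3.12% (odds ratio 2.00, Fisher's exact adjusted p = 0.0245), and so was the E-box CATATG, at 9.90% against 6.43% (odds ratio 1.60, Fisher's exact adjusted p = 0.037). With windows of 50 bp to either side of the summit 0 of the 25 passed, and with 150 bp to either side 10 did. None of the 25 differed between upstream and downstream peaks (2 at an unadjusted p under 0.05) or between start-flanking and farther peaks (3 at an unadjusted p under 0.05), by the same Fisher's exact test.

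The word ACAGTG recurred around the summits. It was picked out after the printed windows had been read, by ranking all 6-letter words with at least 3 G or C by their excess within 60 bp of the summit over windows of that size 500 bp away, among the 2134 reproducible peaks that are not start-flanking. ACAGTG came first there, in 211 summit windows against a mean of 106 in the flanks, and ACACTG and ACTGTG, which share most of its letters, came next. Among all words, without the limit on G and C, those made only of A and T led, such as AAATAT (947 against 349.5). Within 100 bp of the summit ACAGTG occurred at 135 start-flanking summits (16.7%, 14.3 to 19.4), against a mean of 8.35% in windows 500 bp to either side, 9.64% of candidates at the same distances that did not pass and 7.51% of genome windows. The mean over the 179 other words made of the same letters was 5.30% at these summits and 6.46% in the flanks, so the summits were poorer in words of this composition and richer in ACAGTG. Being chosen in this way, the word was given no test.

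ACAGTG was not tied to one side or distance. It occurred at 16.8% of upstream and 16.5% of downstream summits, at 16.9% of promoter and 20.4% of farther summits, and at 21.5% of the 214 peaks inside the gene they precede. Among the 100 strongest start-flanking peaks 21 had it, including Lk6, larp, Sox14, CHES-1-like and both first-exon summits of ph-p. Counted per 80 bp and both sides together, matches numbered 8.48% of the start-flanking peaks at 61 to 140 bp from the summit, 6.44% within 40 bp and 3.77% near 500 bp. At promoter peaks the same values were 8.72%, 5.14% and 3.44%.

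**Figure D5:**
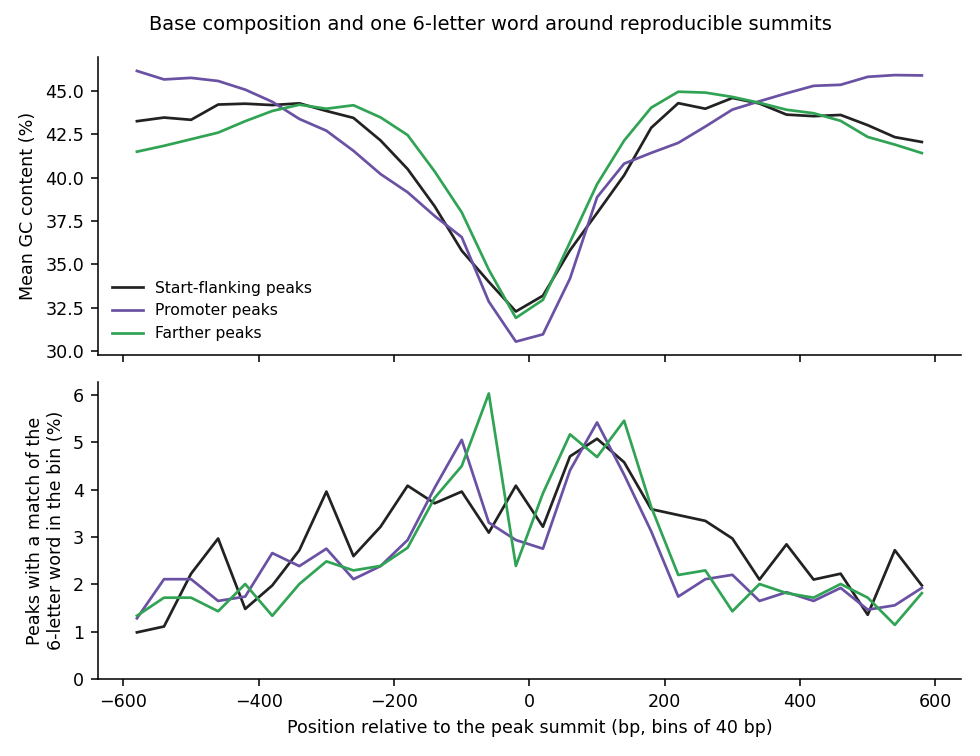
Mean GC content (top) and share of peaks with ACAGTG on either strand (bottom) in bins of 40 bp around the summit, for start-flanking, promoter and farther reproducible peaks. GC content is lowest at the summit in all 3 sets. The share of start-flanking peaks with the word differs from bin to bin without a clear maximum near the summit, at 3.96% in the bin 120 to 81 bp before it, 4.08% in the 40 bp before it and 5.07% in the bin that begins 80 bp after it.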

How the data were processed

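Peaks were mapped in 2 biological replicates of 1 group. For dm6 the authors deposited 30000 candidate peaks per replicate, as many from the pooled replicates, and the 2942 peaks that passed an irreproducible discovery rate (IDR) filter, which measures agreement between replicates. A control was used in calling, per the submitters' file notes. Names and settings of the aligner, the caller and the IDR step were not given in the sources used here. Signal values are the authors' score without a unit, and none was compared between lists. The deposited −log10 q-values were copied but enter no comparison, and summits come from the deposited offsets. Lists on dm3 were left out.

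Starts are those of Ensembl release 115 on BDGP6.54, and bases those of RefSeq Release 6. Motif and GC windows reached 100 bp to either side of the summit, and flank windows lay 500 bp away, on alternating sides for the motif test. Shares have 95% Wilson intervals, and density ratios exact Clopper-Pearson intervals. Fisher's exact tests set disjoint peak sets against each other, and McNemar's exact tests the 2 windows of a peak, with Benjamini-Hochberg adjustment over 16 shares or 25 motifs and a threshold of 0.05. Peaks are not replicates, and 33.4% of the start-flanking ones overlap another peak. Of 512 listed gene names 507 were matched. Placement relative to starts was checked with random and planted positions on the annotation, and the motif tests on simulated sequence. The other steps had no such test. Software was Python 3.11.15, numpy 2.4.6, pandas 2.3.3, scipy 1.17.1 and matplotlib 3.10.9.

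The peak set, gene lists and motifs were chosen with earlier results of these data known. Genes were named by rule: the 12 strongest peaks of each side, the strongest per distance bin and side, the 3 genes with most peaks, and up to 3 genes per list by signal. Windows printed are the 4 strongest per side off 1 chromosome arm. Those touching a UTR gave way to the next strongest, a step added after the data were seen.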

Additional observations from a re-analysis of the deposited data

How the results depend on the processing

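Of 79 recomputed values, 55 stayed within the interval, threshold side or 1.5-fold range of the reported one, 24 moved and none reversed. The odds ratio for the upstream side was 3.55 up to 500 bp and 1.37 (Fisher's exact p = 0.00501) past 500 bp, where it was 1.55 at 500 to 750 bp and 0.98 (Fisher's exact p = 1) at 750 to 1000 bp. Under the other alternatives it stayed past the 0.05 threshold. The upstream share was 72.3% in the 1471 strongest reproducible peaks, 72.3% with protein-coding starts only, 64.8% past 300 bp, 83.4% up to 500 bp and 49.9% past 500 bp. The share of reproducible peaks that were start-flanking was 24.9% with protein-coding starts only. First introns then held 80.3% of downstream peaks, and 50.7% with all starts up to 500 bp. Candidates passed in 11.2% of cases past 300 bp, 16.4% up to 500 bp and 8.92% past 500 bp. A promoter peak at the same gene accompanied 17.4% to 22.2% of peaks of 1 replicate alone, 13.4% among the 1471 strongest, 7.81% with 1 summit per group of overlapping peaks and, in an alternative added after seeing the data, 8.70% without peaks that overlap a promoter peak. The last 2 leave out overlapping peaks by construction. Genes with a peak numbered 322 among the 1471 strongest, a smaller list.

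Motif counts depended on the window: against promoter peaks 0 within 50 bp of the summit and 10 within 150 bp, against flanks 3 within 150 bp, and against farther peaks 1 within 150 bp; the cause was not tested. With 1 replicate alone, upstream against downstream peaks gave 0 to 1 motifs and farther peaks 0 to 1. ACAGTG occurred in 8.54% of windows of 50 bp and 24.0% of 150 bp to either side. No paired analysis was possible because there is 1 group. Depth is unknown, and no untagged control profile was used.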
